A study of Mus musculus with 42 samples.

Results

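Messenger RNA of 35 autophagy and lysosome genes was followed in 4 hypothalamic nuclei of fed and fasted mice. The genes were taken by symbol from the 37907 genes of the deposited expression table by their roles in the pathway, and all 35 were found. They comprised 5 genes of the ULK1 initiation complex, 3 of the VPS34 lipid kinase complex, 5 of ATG9 traffic and lipid transfer, 7 of the conjugation machinery, 5 of the Atg8 family, 3 cargo receptors, 2 transcription factors and 5 lysosomal membrane proteins and proteases. Adult wild-type male C57/BL6 mice had free access to food or went without it for 24 hours. The arcuate nucleus (ARC), ventromedial hypothalamus (VMH), dorsomedial hypothalamus (DMH) and paraventricular nucleus (PVN) were cut from stained brain sections with a laser, and RNA of each was amplified for sequencing. Of the 42 libraries, fed and fasted mice gave 5 each for the ARC and 6 each for the VMH. The DMH had 5 from fed and 4 from fasted mice, and the PVN 6 and 5. Levels are given in RPKM, the reads of a gene divided by its length in kilobases and by the library's total read count. All groups were wild type, so no allele or agent differed between them.

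Autophagy is the route by which a cell encloses its own cytoplasm in a double membrane and delivers it to the lysosome for digestion. The ULK1 kinase complex starts the process, the VPS34 lipid kinase complex marks the growing membrane, and a pair of ubiquitin-like conjugation systems attaches Atg8 proteins to it, where cargo receptors bind them. Nutrient shortage is the classical inducer, through loss of mTORC1 signalling, and a large part of that control acts on proteins through phosphorylation and lipid attachment, which messenger RNA does not report. TFEB and TFE3 are the transcription factors that raise autophagy and lysosome genes when they enter the nucleus, and in neurons of the ARC autophagy is known to take part in feeding control.

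TFEB and TFE3 bind the CLEAR element, whose core is the palindrome CACGTG. RefSeq promoter windows (build GRCm38.p6, from 250 bases before to 50 after a gene start, some genes with several starts) matched 28 of the 35 genes, and both strands were searched. CACGTG was present in 7 of the 28 genes (25%), namely Atg14, Atg3, Atg5, Atg7, Lamp1, Ctsd and Ctsl, against 8.09% of all 27025 genes and 7.15% of all 32851 windows. The longer form TCACGTGA, which contains the core, was present in Atg3 and Ctsd, against 1.12% of all genes. The FOXO motif TGTTTAC was present in 0 of the 28 genes, against 4.05% of all genes. These are matches of letters in a window and say nothing of binding. Starts are those of RefSeq. In GENCODE M21 the nearer Ctsd match and the matches of Ctsl, Atg7 and Atg14 lie inside the spans of these genes. Annotated exons of any gene cover 211 of the 250 bases before the Ctsd start and 197 before that of Atg14. They cover 172 bases before the start of Atg3, 48 before that of Ctsl and 0 before those of Lamp1, Atg5 and Atg7. The sequences shown here belong to Lamp1, Ctsd and Ctsl, the 3 genes with the lowest p between nuclei in both states, and to Atg3, the other gene with the longer form. They run 5′ to 3′ on the strand of the gene, with the matches in capitals. For Lamp1 the 250 bases before the start are given, chr8:13158911-13159160 on the plus strand, which held 4 copies. For the others, 30 bases around a match are given, in the order Ctsd 98 bases before its start (chr7:142387908-142387937, minus strand), Ctsd 245 bases before (chr7:142388048-142388077, minus strand), Ctsl 236 bases before (chr13:64370739-64370768, minus strand) and Atg3 71 bases before (chr16:45158746-45158775, plus strand).
Lamp1: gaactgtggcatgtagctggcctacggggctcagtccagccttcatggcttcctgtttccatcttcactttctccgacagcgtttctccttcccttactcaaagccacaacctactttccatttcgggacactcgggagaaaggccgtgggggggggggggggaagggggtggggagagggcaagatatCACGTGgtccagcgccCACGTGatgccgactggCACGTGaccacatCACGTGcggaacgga
Ctsd, nearer match: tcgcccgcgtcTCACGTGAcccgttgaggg
Ctsd, farther match: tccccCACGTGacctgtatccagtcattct
Ctsl: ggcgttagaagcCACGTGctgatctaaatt
Atg3: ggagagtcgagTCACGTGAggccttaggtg

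The captured tissue matched its labels: each of 8 marker genes was highest in the nucleus it marks, among them Pomc at 441 RPKM in the ARC against 7.8 to 18.8 RPKM elsewhere, and Fezf1 at 95.3 RPKM in the VMH against 0.866 to 4.66 RPKM. Estimated depth ran from 1.33 to 13.2 M reads (M for mega) a library, with a mean of 4.55 M. It was higher in fasted than in fed DMH libraries, with medians of 5.73 and 3.56 M reads. Libraries fell into 3 batches, which were inferred from the values, and batch 1 held 0 fasted DMH libraries. Nuclei were taken from shared brains, but no label ties a library to its mouse, so libraries were treated as independent. In bulk tissue, fewer cells of a type and less RNA per cell cannot be told apart.

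For none of the 35 genes did 2 libraries of a batch share a lowest value, as libraries without reads for a gene do. A single library without reads would not be seen in this way. Tfeb stood at 0.199 RPKM in fed ARC replicate 2, near its estimated added count of 0.194 RPKM. Mean levels of the 35 over the 42 libraries ranged from 0.664 RPKM for Tfeb to 251 RPKM for Gabarapl1. Lysosomal proteases, Lamp1, Sqstm1 and the Atg8 genes other than Map1lc3b made up the upper end. Ctsd, the aspartic protease cathepsin D, averaged 175 RPKM, Lamp1, an abundant glycoprotein of the lysosomal membrane, 161 RPKM, Ctsb, the cysteine protease cathepsin B, 102 RPKM, and Ctsl, the cysteine protease cathepsin L, 74.5 RPKM. Sqstm1, which encodes the cargo receptor p62, averaged 81.2 RPKM. The initiation, lipid kinase, lipid transfer and conjugation genes were lower, between 1.77 RPKM for Atg4d and 25.4 RPKM for Atg3. The residual SD among libraries of a group, on the log2(RPKM + 1) scale, ranged from 0.153 for Lamp1 to 0.755 for Atg101, so the genes differed widely in how small a change could be seen.

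The first comparison asked whether a 24 hour fast changed these genes in any nucleus. None of the 35 was called (limma, adjusted p under 0.1 over 33579 genes) in the ARC, where 0.0566% of all genes were called, in the VMH (0.131%), in the DMH (0.0238%) or in the PVN (0.0715%). With so few genes called anywhere, an empty count for 35 genes is near the background. The same held for the mean fasting change over the 4 nuclei (0 of 35, with 0.5% of all genes called) and for the interaction of nucleus and fasting (0 of 35, with 0.00596% of all genes called). At an unadjusted p under 0.05 the counts were 1 of 35 for ARC, 2 for VMH, 3 for DMH, 1 for PVN and 2 for the mean change.

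**Figure D1:**
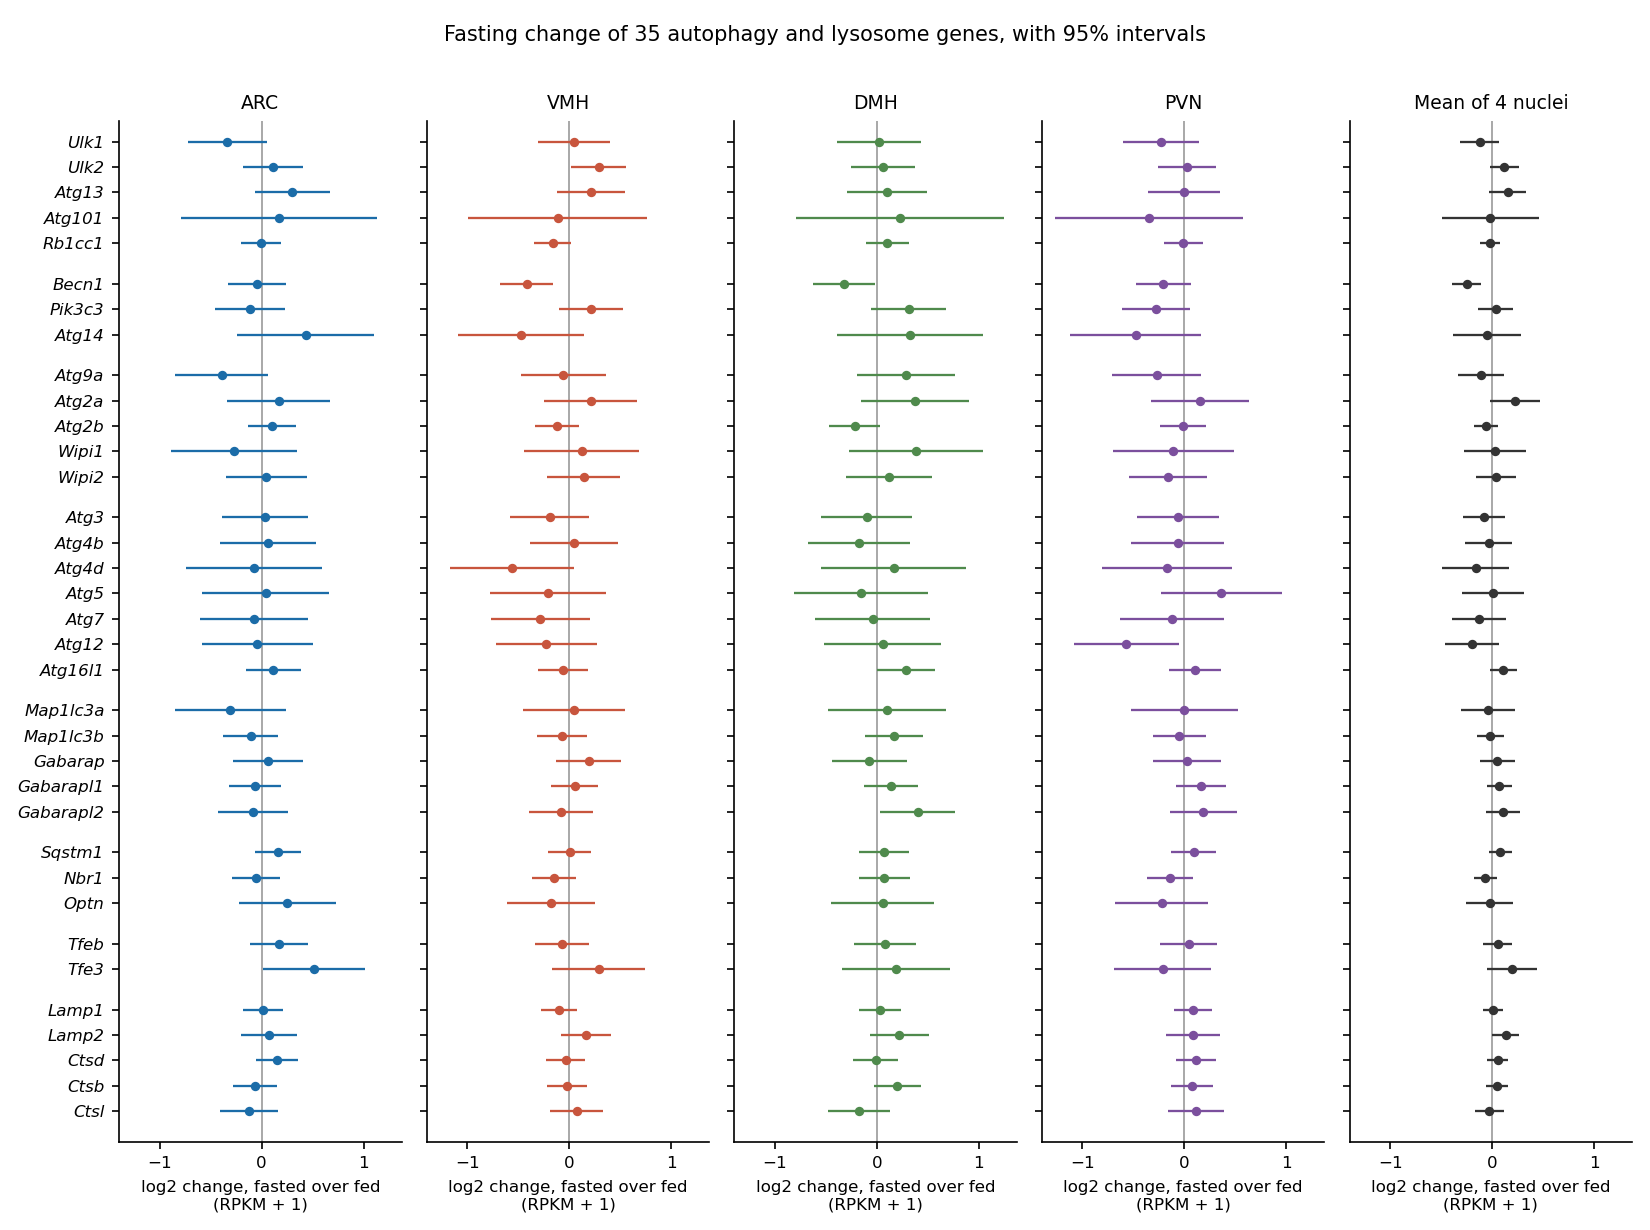
Log2 change from fed to fasted (x axis, log2 of RPKM + 1) of each of the 35 genes (y axis, grouped by role) in each nucleus and as the mean of the 4 nuclei, with points for the estimates and lines for 95% intervals. In every panel the points lie on both sides of 0, and in the mean panel every interval lies within 0.5 of 0 on this scale, which understates fold changes of low genes.

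The intervals bound how large a change on the log2(RPKM + 1) scale could have gone unseen. For low genes this scale and the added count understate fold changes, so the intervals do not bound the fold changes of those genes. On the log2(RPKM + 1) scale the median standard error was 0.17 for ARC, 0.16 for VMH, 0.18 for DMH and 0.16 for PVN. The 95% interval lay wholly within 1 log2 unit of no change for 32 genes in ARC, DMH and PVN each and for 33 in VMH. It lay within 0.5 log2 units for 20 genes in ARC, 17 in VMH, 15 in DMH and 18 in PVN. The interval of the mean change over nuclei lay within 0.5 log2 units for all 35. That mean treats libraries of nuclei from shared brains as independent, so its standard errors and p-values may be too small. The widest intervals belonged to Atg101, a scaffold of the ULK1 complex, which in the PVN ran from -1.27 to 0.57.

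The direction of the small differences was split. In the ARC 19 of 35 estimates were above 0 with a median of 0.03, in the VMH 15 with a median of -0.06, and in the PVN 14 with a median of -0.02. Over all tested genes, 46.3%, 43.8% and 39.3% were above 0 in these nuclei. In the DMH 26 of 35 were above 0 with a median of 0.10, where 50.2% of all genes were above 0. Fasted DMH libraries were deeper than fed ones, and the count was 24 of 35 with depth as a covariate. Within batch 2, 19 of 35 estimates were above 0 in the DMH, and 25 within batch 3.

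Becn1, which encodes Beclin 1, the regulatory subunit of the VPS34 complex, had the lowest p of the genes for the VMH and for the mean change. In fed VMH its levels ran from 10.2 to 16.2 RPKM with a median of 12.2 RPKM, and in fasted VMH from 6.84 to 11.2 RPKM with a median of 9.26 RPKM. The groups overlapped, although each fasted library lay below the fed mean. The change was -0.42 ± 0.13 log2 (SE, n = 6 and 6), with adjusted p = 0.328 by limma. In the DMH, fed libraries held 6.42, 7.91, 8.09, 9.17 and 9.87 RPKM, and fasted libraries 5.64, 5.82, 6.72 and 7.40 RPKM, a change of -0.32 ± 0.15. In the ARC the change was -0.04 ± 0.14 and in the PVN -0.21 ± 0.13. Becn1 was lower in fasted libraries in 9 of the 11 pairs of nucleus and batch that held both states. These pairs are not independent, since nuclei share brains, and they hold the same libraries as the estimates. Lamp2, which was not called either, was higher in fasted libraries in 9 of the 11. The mean change of Becn1 over nuclei was -0.25 ± 0.07, with adjusted p = 0.147 by limma. The adjusted p of this mean change was above the threshold of 0.1. It passed the threshold in 4 of the settings run, which were 11 alternatives and 42 fits without 1 library. These were the fit without genes of a mean under 5 RPKM (adjusted p = 0.0809 by limma), and those without fasted ARC replicate 3 (0.0789), fed DMH replicate 4 (0.0966) or fed PVN replicate 1 (0.0554). In the other settings Becn1 was not called for the mean change. Exons of Cntd1 overlap 43.9% of the exon length of Becn1, and whether reads were counted by strand is not given in the sources used here, so reads in that stretch could belong to either gene. Cntd1 itself stayed between 0.459 and 1.66 RPKM. For Pik3c3, the catalytic lipid kinase VPS34, and Atg14, the subunit that directs the complex to autophagy, the mean changes were 0.03 ± 0.08 and -0.05 ± 0.16 log2.

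Pik3c3 was 1 of 2 genes whose fed and fasted values did not overlap in the DMH, where 1.15% of all tested genes did not overlap. Its fed DMH libraries held 8.47, 8.95, 9.08, 9.73 and 10.4 RPKM, and its fasted libraries 10.8, 11.1, 11.2 and 14.3 RPKM (0.31 ± 0.18 log2, not called). In the PVN the estimate had the other sign, at -0.28 ± 0.16. The second was Atg2b, a lipid transfer protein of the growing membrane, with 14.2 to 17.2 RPKM in fed and 12.7 to 13.6 RPKM in fasted DMH (-0.22 ± 0.12). No gene of the 35 was without overlap in the ARC, VMH or PVN, where 0.742%, 0.277% and 0.402% of tested genes were.

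Among the initiation kinases, Ulk2 ran from 9.51 to 17.6 RPKM in fed VMH (median 14.5 RPKM) and from 13.7 to 21.0 RPKM in fasted VMH (median 16.3 RPKM), a difference of 0.29 ± 0.13 log2 with adjusted p = 0.61 by limma. Its paralogue Ulk1 held 14.8, 15.5, 17.7, 18.0 and 19.6 RPKM in fed ARC and 8.30, 11.1, 15.1, 15.9 and 18.4 RPKM in fasted ARC (-0.34 ± 0.19, adjusted p = 0.765 by limma). Both pairs of groups overlapped. Atg9a, the only membrane-spanning protein of the core machinery, held 14.6, 17.9, 18.6, 21.7 and 25.8 RPKM in fed ARC and 12.3, 13.7, 14.4, 15.2 and 17.6 RPKM in fasted ARC (-0.39 ± 0.23). Exons of neighbouring genes overlap 32.6% of its exon length, which leaves its count uncertain.

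In the conjugation machinery, Atg12, a ubiquitin-like protein that is joined to Atg5, ran from 9.83 to 21.9 RPKM in fed PVN (median 14.2 RPKM) and held 6.78, 7.05, 9.20, 10.2 and 14.3 RPKM in fasted PVN. The difference was -0.57 ± 0.26 log2 with adjusted p = 0.869 by limma, and the groups overlapped. Atg16l1, which brings that conjugate to the membrane, held 3.83, 4.08, 4.15, 4.17 and 4.51 RPKM in fed DMH and 3.91, 5.66, 5.69 and 6.05 RPKM in fasted DMH (0.29 ± 0.14). Atg4d, a protease that trims Atg8 proteins, ran from 0.764 to 4.17 RPKM in fed VMH (median 2.63 RPKM) and from 0.433 to 4.76 RPKM in fasted VMH (median 1.02 RPKM). Its difference of -0.56 ± 0.30 log2 was the lowest of the 35 in the VMH, but 1 fasted library stood at the top of both groups. The other conjugation genes, Atg3, Atg4b, Atg5 and Atg7, had estimates between -0.29 and 0.36 log2 in the 4 nuclei.

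**Figure D2:**
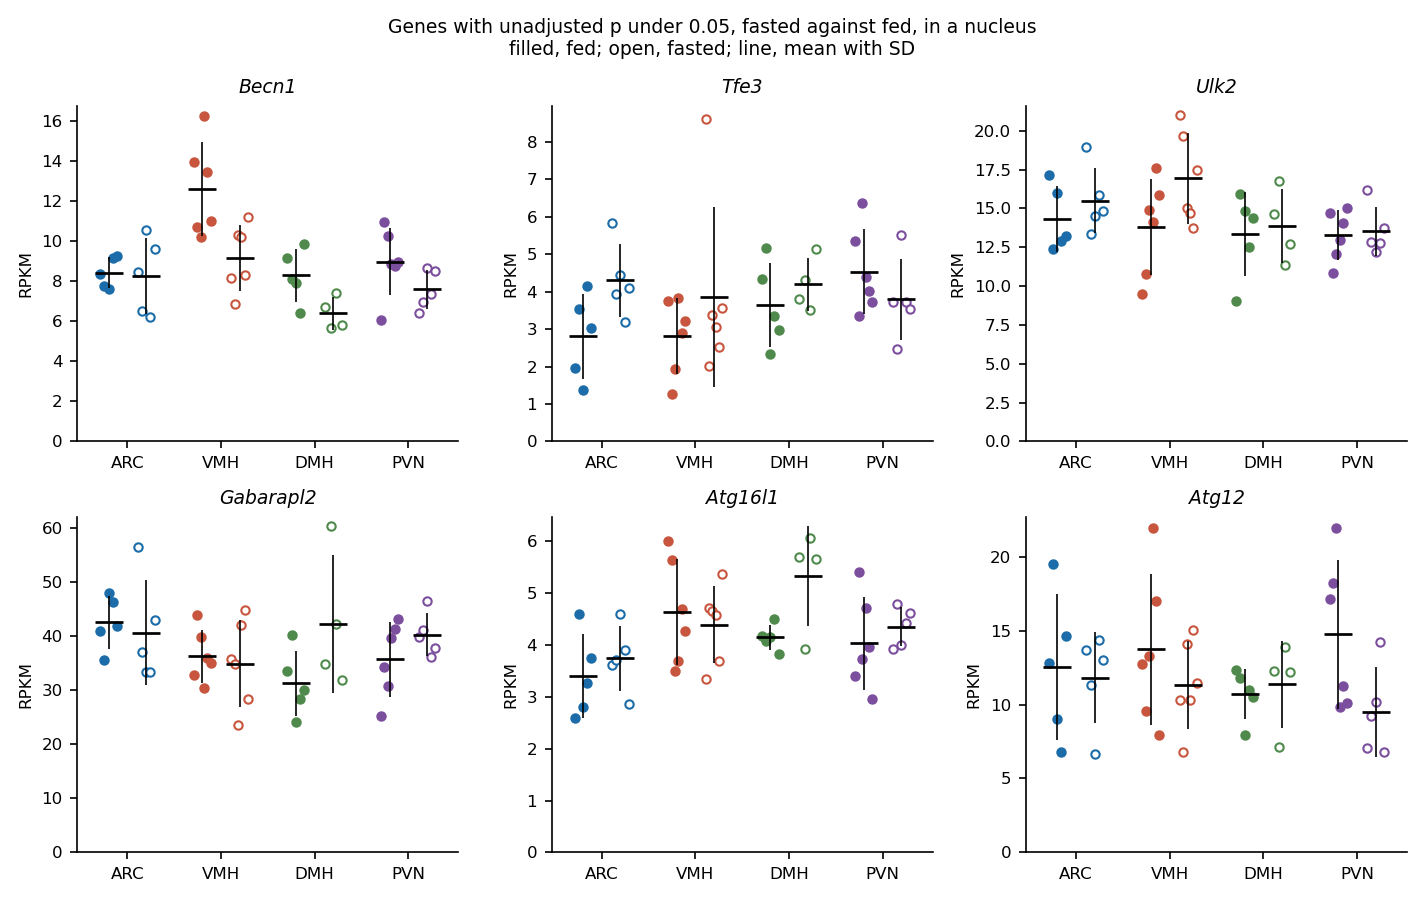
RPKM (y axis) in every library for the 6 genes with an unadjusted p under 0.05 between fed (filled points) and fasted (open points) libraries in at least 1 nucleus (x axis), with lines for means and SD. Becn1 was lower in fasted than in fed VMH on average, 9.16 against 12.6 RPKM, and in all 6 panels the fed and fasted points of each nucleus overlap.

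The Atg8 proteins are attached to the autophagosome membrane and are the usual markers of the pathway. Per length, Gabarapl1 was the most abundant of the 5, with group means from 222 to 273 RPKM. Map1lc3a followed with 57.3 to 84.7 RPKM, Gabarap with 49.9 to 81.8 RPKM, Gabarapl2 with 31.3 to 42.6 RPKM and Map1lc3b with 10.6 to 13.6 RPKM. Map1lc3b, which encodes the LC3B protein used to follow autophagy in tissue, thus had the lowest RPKM of the family in every group. Its annotated exon length is 7517 bases, against 1181 for Map1lc3a, 1844 for Gabarap, 2013 for Gabarapl1 and 2325 for Gabarapl2. RPKM divides by length, and the part of length in this rank was not tested. Exons of 1700101I11Rik overlap 28.3% of the exon length of Gabarapl1, and 12.2% of the 50-base stretches of Gabarapl2 recur in transcripts of other genes.

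No Atg8 gene was called between fed and fasted mice. Gabarapl1 averaged 231 ± 23.3 RPKM (SD, n = 5) in fed and 222 ± 38.2 RPKM in fasted ARC, and 244 ± 37.5 RPKM (n = 6) in fed and 273 ± 44.7 RPKM (n = 5) in fasted PVN. Map1lc3a was at 66.4 ± 10.4 RPKM in fed and 57.3 ± 22.2 RPKM in fasted ARC, where 1 fasted library stood at 23.4 RPKM. Map1lc3b was at 13.4 ± 1.55 RPKM in fed and 12.8 ± 1.88 RPKM in fasted VMH. Gabarapl2 in the DMH had the lowest p of the family. Its fed libraries held 24.2, 28.4, 30.1, 33.5 and 40.3 RPKM and its fasted libraries 31.9, 34.9, 42.2 and 60.4 RPKM, a difference of 0.40 ± 0.18 log2 with adjusted p = 0.743 by limma.

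**Figure D3:**
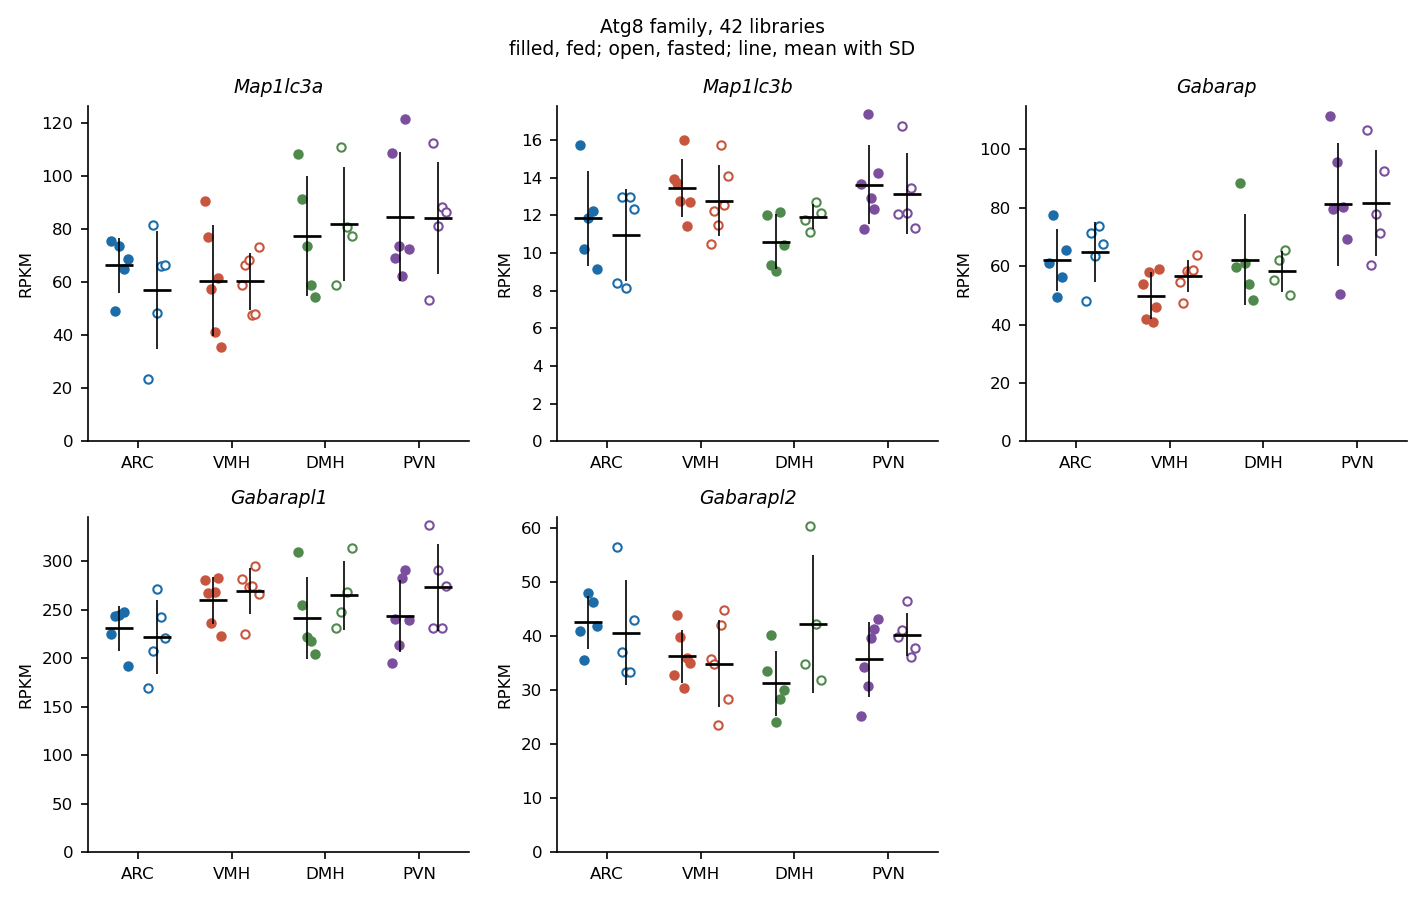
RPKM (y axis, a separate scale for each gene) of the 5 Atg8 genes in every library by nucleus (x axis), with filled points for fed, open points for fasted, and lines for means and SD. Fed and fasted points overlap in every nucleus, and Gabarapl1 lies at 169 RPKM or above in all libraries.

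The cargo receptors tie ubiquitin-marked material to the Atg8 proteins. Sqstm1 averaged 70.2 ± 3.85 RPKM (SD, n = 5) in fed and 79.0 ± 9.57 RPKM in fasted ARC, and the estimates of Sqstm1, Nbr1 and Optn over the 4 nuclei ran from -0.22 to 0.25 log2. Of the transcription factors, Tfe3 had the lowest p in the ARC. Its fed libraries held 1.37, 1.96, 3.03, 3.53 and 4.16 RPKM and its fasted libraries 3.18, 3.95, 4.10, 4.45 and 5.82 RPKM. The groups overlapped, with a difference of 0.51 ± 0.24 log2 and adjusted p = 0.647 by limma. Within batches 1, 2 and 3 the difference was 1.21, 0.66 and 0.02 log2. In the PVN the estimate for Tfe3 was -0.21 ± 0.23. Tfeb was the least abundant of the 35. The count that the authors added to every gene was estimated at 0.194 RPKM for Tfeb, which is 29.2% of its mean, so changes in it are understated. For the other 34 genes that share was at most 8.52%.

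Lamp1 and Ctsd varied little among libraries of a group, with residual SDs of 0.153 and 0.162 log2, and their intervals were narrow. The estimates for Lamp1 were 0.02 ± 0.10 log2 (ARC), -0.10 ± 0.09 (VMH), 0.03 ± 0.10 (DMH) and 0.09 ± 0.09 (PVN). Those for Ctsd were 0.15 ± 0.10, -0.04 ± 0.09, -0.01 ± 0.11 and 0.11 ± 0.10 in the same order. For the mean over nuclei, the 95% interval of Ctsd ran from -0.05 to 0.16 and that of Lamp1 from -0.09 to 0.10. Lamp2, the membrane protein that also serves chaperone-mediated autophagy, had a mean change of 0.13 ± 0.07 (adjusted p = 0.698 by limma).

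The second comparison asked whether the nuclei differed from each other in these genes. In fed mice 9 of the 35 were called between nuclei (25.7%), where 12.4% of all genes were. They were Ctsd (chr7:142375911-142388038), Ctsl (chr13:64359337-64370890), Lamp1 (chr8:13159161-13175338) and Ctsb (chr14:63122462-63145923) of the lysosome, and Becn1 (chr11:101285952-101302286), Wipi1 (chr11:109573331-109611967), Gabarap (chr11:69991143-69994951), Tfeb (chr17:47737030-47792419) and Sqstm1 (chr11:50199366-50210827), with positions in GRCm38 from GENCODE M21. In fasted mice 4 of the 35 were called (11.4%), where 11.9% of all genes were, a share near the background. These were Ctsd, Ctsl, Lamp1 and Ctsb. Thus 4 of the 5 lysosomal genes were called in both states, and the libraries of the states were separate. Of the other 30 genes, 5 were called in fed and 0 in fasted mice. The share over all 33579 tested genes takes in many low genes, which an added count draws toward equality. A mean of at least 5 RPKM was reached by 14467 of them and by 30 of the 35. The part of expression level in the higher fed share of the 35 was not tested.

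**Figure D4:**
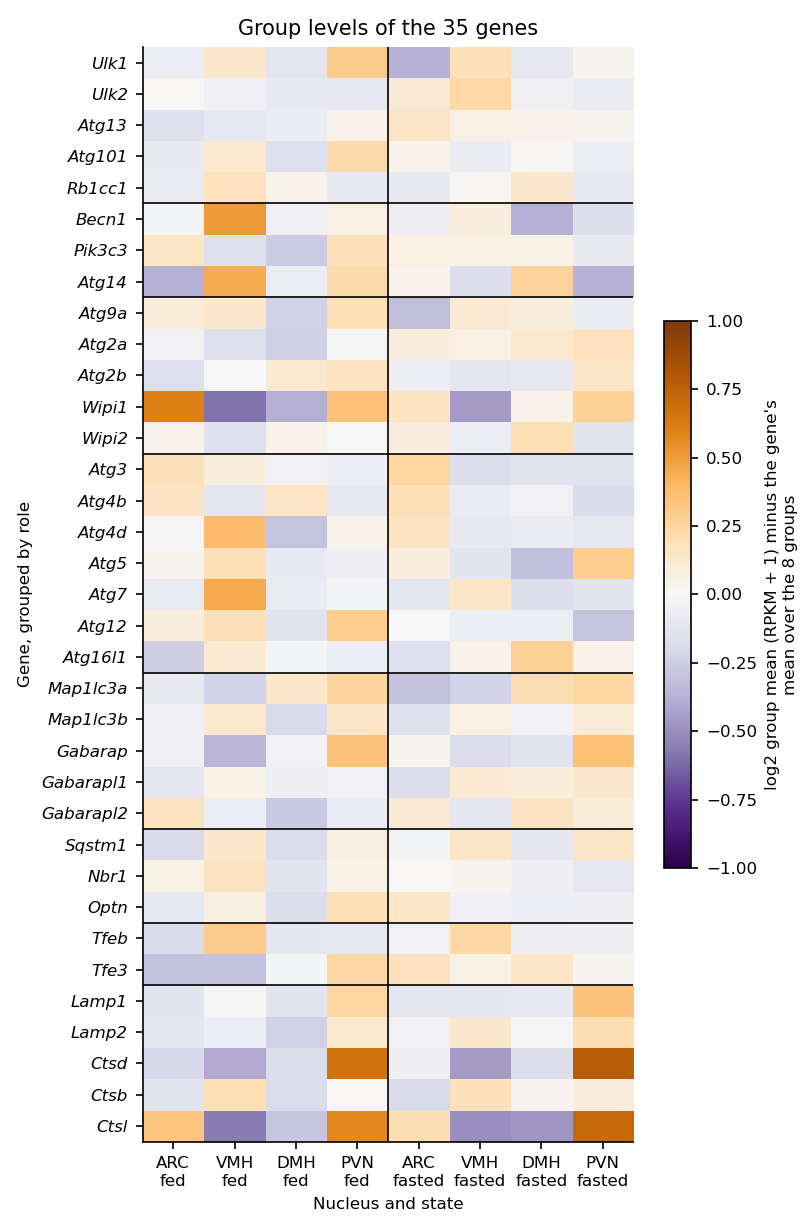
Level of each of the 35 genes (rows, grouped by role) in the 8 groups of nucleus and state (columns), as the log2 group mean (RPKM + 1) minus the mean of that gene over the groups, in colour from -1 to 1. Ctsd and Ctsl are high in both PVN columns and low in both VMH columns, and Becn1 is highest in fed VMH.

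Ctsd was about 2 times as high in the PVN as in the VMH. In fed PVN its libraries ran from 233 to 292 RPKM with a median of 266 RPKM. Fed ARC libraries held 119, 139, 155, 157 and 157 RPKM, fed DMH libraries 133, 140, 142, 157 and 170 RPKM, and fed VMH libraries ran from 90.5 to 143 RPKM. Every PVN library lay above every library of the other nuclei. The means were 264 ± 19.2 RPKM (SD, n = 6) in the PVN and 126 ± 19.3 RPKM (n = 6) in the VMH, a ratio of 2.10, and VMH against PVN differed by -1.08 ± 0.09 log2 with adjusted p = 6.8e-11 by limma. Levels in the ARC and DMH were 145 ± 16.6 and 148 ± 14.9 RPKM and were not called different. In fasted mice the order held at the ends, with 286 ± 32.3 RPKM (n = 5) in the PVN and 121 ± 7.11 RPKM (n = 6) in the VMH. PVN was highest and VMH lowest within each of the 3 batches in both states. Exons of the predicted gene Gm49369 overlap 34.4% of the exon length of Ctsd.

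Ctsl shared the ends of this order but not the middle. Fed PVN libraries ran from 96.6 to 117 RPKM with a median of 103 RPKM, and fed ARC libraries held 72.5, 79.6, 93.4, 98.6 and 98.8 RPKM. Fed DMH libraries held 48.4, 52.3, 55.8, 63.6 and 67.3 RPKM, and fed VMH libraries ran from 33.0 to 58.1 RPKM. ARC and PVN thus lay above VMH and DMH with no overlap between the pairs. VMH differed from PVN by -1.16 ± 0.13 log2 (adjusted p = 2.4e-08 by limma) and ARC from VMH by 0.91 ± 0.14 (adjusted p = 8.2e-06). In fasted mice the means were 116 ± 26.3 RPKM (n = 5) in the PVN, 81.5 ± 12.5 RPKM in the ARC, 50.3 ± 2.49 RPKM in the DMH and 49.6 ± 9.17 RPKM in the VMH. The PVN mean was 104 ± 1.13 RPKM without 1 library at 163 RPKM. Exons of Gm47123 and Gm49230 overlap 26.8% of the exon length of Ctsl.

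Lamp1 was higher in the PVN by a smaller margin. Fed PVN libraries ran from 168 to 207 RPKM with a median of 194 RPKM, and fed libraries of the ARC from 132 to 153 RPKM, of the DMH from 120 to 174 RPKM, and of the VMH from 143 to 197 RPKM. PVN differed from the ARC, DMH and VMH, with ARC against PVN at -0.38 ± 0.09 log2 (adjusted p = 0.0111 by limma), DMH against PVN at -0.38 ± 0.09 (0.0131) and VMH against PVN at -0.27 ± 0.09 (0.0568). In fasted mice PVN averaged 202 ± 26.9 RPKM and the other nuclei 147 to 149 RPKM. Lamp2, in contrast, was not called in either state, with fed means of 11.1 to 14.5 RPKM.

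Ctsb had its highest mean in the VMH, the nucleus with the lowest Ctsd and Ctsl. Fed means were 116 ± 14.6 RPKM in the VMH, 102 ± 6.27 in the PVN, 92.5 ± 9.72 in the ARC and 89.4 ± 8.08 in the DMH, and VMH differed from the DMH by 0.37 ± 0.10 log2 (adjusted p = 0.0268 by limma) and from the ARC. The call in fasted mice (adjusted p = 0.0826) was lost without the libraries under 2 M reads (0.175) and with replicate numbers as a block (0.129). It was also lost, with adjusted p up to 0.253, on leaving out any of 11 single libraries, namely fasted ARC replicates 1, 2, 4 and 5, PVN replicates 3 and 4, and VMH replicates 1, 3, 4, 5 and 6. The fed call was lost without fed VMH replicate 1 or 3, with adjusted p up to 0.124. Exons of Fdft1 overlap 12.8% of the exon length of Ctsb, and Fdft1 also had its highest fed mean in the VMH, 71.6 RPKM against 48.7 to 60.8 RPKM. The part of shared reads in the Ctsb difference was not tested.

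**Figure D5:**
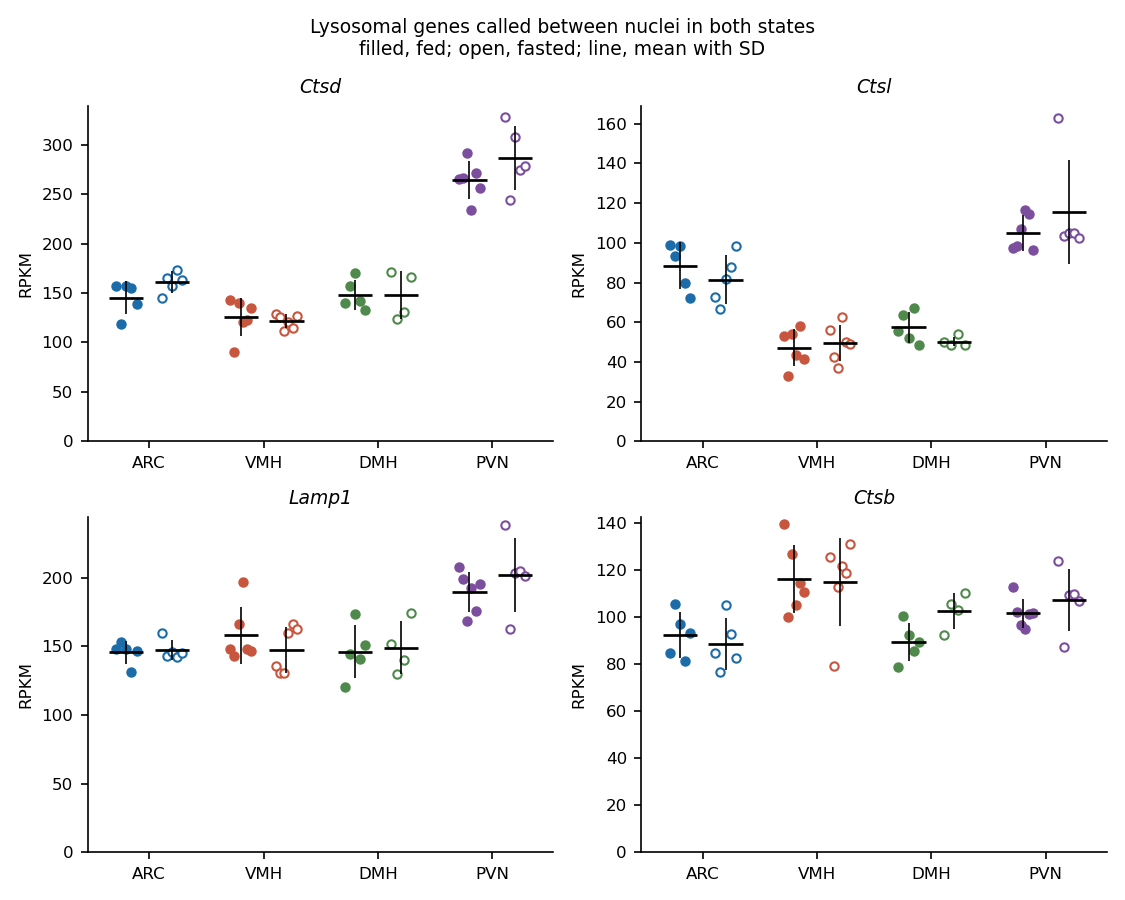
RPKM (y axis, from 0) of 4 lysosomal genes in every library by nucleus (x axis), with filled points for fed, open points for fasted, and lines for means and SD. For Ctsd every PVN point lies above every point of the other nuclei in both states, and for Ctsl the fed ARC and PVN points lie above the fed VMH and DMH points.

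Becn1 was highest in fed VMH, at 12.6 ± 2.35 RPKM against 8.42 ± 0.768 in the ARC, 8.29 ± 1.32 in the DMH and 8.97 ± 1.68 in the PVN. ARC against VMH differed by -0.51 ± 0.13 log2, VMH against DMH by 0.54 ± 0.13 and VMH against PVN by 0.45 ± 0.13 (adjusted p = 0.0126, 0.0122 and 0.0226 by limma). In fasted mice, where VMH held 9.16 ± 1.65 RPKM, the nuclei were not called different. Wipi1, which reads the lipid mark of VPS34, averaged 9.38 ± 7.09 RPKM in fed ARC, 7.70 ± 1.64 in the PVN, 4.26 ± 1.26 in the DMH and 3.52 ± 1.21 in the VMH. The ARC libraries held 4.92, 5.68, 6.05, 8.41 and 21.8 RPKM, and without the highest the mean was 6.27 ± 1.5 RPKM, below that of the PVN. The call itself held without that library. Gabarap was higher in fed PVN, at 81.2 ± 21.1 RPKM, than in fed VMH, at 49.9 ± 8.11 RPKM (VMH against PVN -0.66 ± 0.16, adjusted p = 0.00375 by limma), and ARC and DMH lay between. Fed PVN libraries ran from 50.4 to 111 RPKM with a median of 79.9 RPKM, and fed VMH libraries from 40.9 to 59.0 RPKM with a median of 49.9 RPKM, so the groups overlapped. Fed ARC libraries held 49.5, 56.3, 61.0, 65.6 and 77.7 RPKM and fed DMH libraries 48.3, 53.8, 59.6, 61.1 and 88.4 RPKM. Tfeb was highest in fed VMH, at 1.02 ± 0.249 RPKM against means of 0.445 to 0.530 RPKM elsewhere, a call lost without fed VMH replicate 1 (adjusted p = 0.121). Sqstm1 held 88.3 ± 13.3 RPKM in fed VMH and 70.2 ± 3.85 RPKM in fed ARC (adjusted p = 0.0847 by limma), and its call between the 4 nuclei was lost, with adjusted p up to 0.148, on leaving out any of 6 single libraries, namely fed ARC replicates 1 and 5, DMH replicates 4 and 5, and VMH replicates 1 and 4.

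Within the batches, the fed order of these genes was less even than that of Ctsd. VMH was highest in 3 of 3 batches for Becn1, Ctsb and Tfeb and in 2 of 3 for Sqstm1, and PVN in 2 of 3 for Ctsl, Lamp1, Gabarap and Wipi1. In fasted mice PVN was highest in 3 of 3 batches for Ctsl and Lamp1.

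Counted by pair of fed nuclei, the genes called were most numerous for VMH against PVN, with 8 of 35 where 9.84% of all genes were called. ARC against VMH gave 6 (7.9% of all genes), VMH against DMH 3 (5.24%), DMH against PVN 3 (3.42%), ARC against PVN 2 (4.13%) and ARC against DMH 1 (2.79%). These pairs share libraries. Rb1cc1, the scaffold FIP200 of the ULK1 complex, was called for VMH against PVN (0.25 ± 0.09, adjusted p = 0.0843 by limma) though not across the 4 nuclei. By mean level alone, 17 of the 35 were highest in fed PVN and 16 were lowest in fed DMH, where 18.7% and 15.5% of all tested genes were. In fasted mice the counts were 13 and 5, where 18.8% and 21.3% of all tested genes were. The ratio of the highest to the lowest fed nucleus had a median of 1.33 over the 35 genes and 1.27 over all tested genes. The highest nucleus was the same in both states for 17 of the 35 (48.6%), against 46.5% of all tested genes.

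The nuclei also differed in markers of cell types, which were counted for the whole lists. The summed level of 4 endothelial markers ran from 41.9 to 60.7 RPKM in fed PVN and from 12.04 to 28.3 RPKM in the other fed nuclei. That of 5 oligodendrocyte markers ran from 186 to 294 RPKM in fed VMH and from 62.2 to 150 RPKM elsewhere, and that of 6 neuronal markers from 1260 to 1440 RPKM in fed VMH and from 672 to 1008 RPKM elsewhere. Snap25 made up most of the neuronal sum in the VMH, with a fed mean of 813 RPKM, whereas Tubb3 and Stmn2 had their highest fed means in the PVN (107 and 204.5 RPKM, against 81.4 and 184 RPKM in the VMH). The 8 microglial markers summed to 59.6 to 70.1 RPKM in fed PVN and 76.3 to 110 RPKM in fed ARC. In fed VMH they summed to 52.6 to 99.4 RPKM and in fed DMH to 56.3 to 77.6 RPKM, which overlap both of those ranges. The 5 astrocyte markers summed to 84.1 to 137 RPKM over the fed nuclei. The 4 tanycyte and ependymal markers summed to 5.45 to 22.5 RPKM and the 4 blood markers to 15.2 to 71.2 RPKM over the fed nuclei. No marker in these lists was at the level of a library without reads throughout. The part of these cell types in the differences between nuclei was not tested.

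Beyond the 35, a list of 102 further genes of the pathway, chosen by function, was read in the same fit. In none of the 4 nuclei was any of the 102 called between fed and fasted mice, and 1 was called for the mean fasting change, where 0.5% of all genes were, so that 1 of 102 is near the background. This was Ctss, cathepsin S, a cysteine protease known from microglia and other phagocytes. Its group means went from 45.5 ± 4.91 to 35.5 ± 1.86 RPKM in the ARC, 31.0 ± 5.74 to 23.6 ± 1.44 in the VMH, 27.9 ± 7.74 to 24.0 ± 4.18 in the DMH and 20.9 ± 3.24 to 17.6 ± 3.93 in the PVN. The mean change was -0.28 ± 0.07 log2 with adjusted p = 0.0997 by limma, at the edge of the threshold, and the call held in 6 of 11 alternatives and without each library in 11 of 42 cases. Of the 8 microglial markers, the fasted estimate was above 0 for 1 in ARC (median -0.21 log2), 4 in VMH (-0.0031), 2 in DMH (-0.08) and 1 in PVN (-0.17), and none was called. Their sum ran from 76.3 to 110 RPKM in fed and from 46.9 to 92.8 RPKM in fasted ARC, and from 52.6 to 99.4 RPKM in fed and from 39.3 to 82.2 RPKM in fasted VMH. The part of microglia in the Ctss change was not tested.

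Among the further genes with the lowest p in each nucleus were these, none of them called. In the ARC they were the subunits Atp6v1h (-0.41 ± 0.12 log2) and Atp6v1b2 (0.24 ± 0.08) of the vacuolar ATPase, the proton pump that acidifies the lysosome. In the VMH they were Slc38a9, the lysosomal arginine sensor of the mTORC1 pathway, at -0.62 ± 0.17, and Calcoco1, a receptor for autophagy of the endoplasmic reticulum, at 0.42 ± 0.15. In the DMH they were Atp6v1g2 at 0.34 ± 0.11 and Psap, the precursor of the saposins that help to digest sphingolipids, at 0.27 ± 0.09. In the PVN Smpd1, acid sphingomyelinase, was at -0.44 ± 0.14.

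Between fed nuclei 31 of the 102 were called (30.4%, against 12.4% of all genes), and 26 between fasted nuclei (25.5%, against 11.9%). By list these were 12 and 5 of 24 lysosomal hydrolases and cofactors, 7 and 6 of 16 vacuolar ATPase genes, 7 and 7 of 22 nutrient and energy signalling genes, 2 and 5 of 12 other lysosomal membrane proteins, 3 and 2 of 10 other cargo receptors, and 0 and 1 of 18 other autophagy genes. The last list was below the share of all genes in both states. The genes with the lowest p in 3 of these lists, named after their values were seen, were each highest in fed VMH. Psap was highest in fed VMH (381 ± 25.2 RPKM) and lowest in fed ARC (231 ± 21.8 RPKM). Atp6v1g2 also ran from 116 ± 10.1 RPKM in fed ARC to 263 ± 12.1 RPKM in fed VMH. Deptor, an inhibitor of mTOR kinase, was at 20.4 ± 6.31 RPKM in fed VMH, 14.3 ± 3.18 in the ARC, 6.96 ± 3.63 in the DMH and 3.66 ± 1.37 in the PVN. Other further genes had lower means in fed VMH than in fed PVN. Among them were Ctsz (7.30 against 26.2 RPKM), Gaa (166 against 237 RPKM) and Npc2 (11.4 against 24.3 RPKM). These were also picked after their values were seen, and directions over the whole lists were not counted.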

How the data were processed

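Nuclei were laser-captured from cresyl violet stained frozen sections, and total RNA was amplified with the Ovation RNA-Seq System V2 (NuGEN) and sequenced in single-end reads on an Illumina HiSeq. Amplification from little RNA raises the spread between libraries of low genes. Per the labels, the submitters' processing notes name CASAVA 1.7, TopHat2 2.0.11, Cufflinks 2.2.1, edgeR and limma, with build GRCm38. Libraries that stood apart on a multidimensional scaling plot had been left out by the authors. The deposited table holds RPKM values per Ensembl gene, made by the authors.

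The table held no zeros. Its low values fell on steps of whole reads (98.05 to 99.05% of values, within 0.1 reads) above a value shared by genes without reads. From these steps the count added to each gene (mean 5, range 1.46 to 14.5 reads), the depth of each library (mean 4.55 M reads) and 3 batches of 10, 16 and 16 libraries were inferred. For the median gene the batch means were equal to within 7.8e-08 log2, so the deposited values had been set to equal batch means and batch was not a term. The fit did not count the degrees of freedom this uses, which makes standard errors somewhat too small. Batches were also not balanced over the groups. Batch 1 held 2 libraries each of fed and fasted VMH, 1 of fed DMH and 0 of fasted DMH. Equal batch means on such a layout can shift the differences between groups, and the size of that shift was not tested. An added count draws low genes toward equality. Intervals and standard errors cover the spread between libraries only. No 2 libraries were alike beyond a correlation of 0.977.

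Members and gene lists were chosen with earlier results of these data known. Gene symbols came from GENCODE M21 by Ensembl identifier (36049 of 37907 matched). Log2(RPKM + 1) of the 33579 genes with at least 1 RPKM in at least 4 of the 42 libraries was fitted with limma 3.58.1 in R 4.3.3, with a mean for each of 8 groups, moderated variances with an intensity trend, and Benjamini-Hochberg adjustment over all genes tested. A gene was called at an adjusted p under 0.1. All 35 members passed the filter. The value of a gene without reads had a median of 1.55 RPKM, so genes without reads could pass it as well. Fold changes on this scale understate those of low genes. Nuclei were compared by F tests within each state and by pairs of fed nuclei. The genes described singly were the 3 with the lowest p in each nucleus, the 6 with the lowest p between fed nuclei and the Atg8 family. For these, values by library, ranges or means with SD were given in some nuclei and estimates alone in others. Of the further genes, means or estimates were given for those called for fasting and the 2 with the lowest p in each nucleus. For the PVN, 1 of these is not reported here. The fit was tested on simulated data. Overlap with other genes was measured on annotated exons and 50-base stretches. Summaries and figures used Python 3.11.15, NumPy 2.4.6, pandas 2.3.3, SciPy 1.17.1 and matplotlib 3.10.9. Alternatives were other pseudocounts, filters and scalings, no trend, array weights, depth as a covariate, the replicate number as a block, fits of 1 nucleus, and leaving out each library. Leaving out the 3 libraries under 2 M reads was added after seeing the data.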

Additional observations from a re-analysis of the deposited data

Results flagged for a closer look

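In 27 of 280 combinations of gene and group, 1 library stood apart from the others by Dixon's criterion, where chance gives about 1 in 20 (14 of 280). In 22 the library was above the others and in 5 below, and they came from 20 libraries with at most 3 in a library.

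Among initiation and lipid kinase genes, Atg13 stood at 25.3 RPKM in fed DMH replicate 1, against 17.4 to 19.5 RPKM in the others. Pik3c3 stood at 18.6 RPKM in fasted VMH replicate 2 and 14.3 RPKM in fasted DMH replicate 2. Atg14 stood at 22.7 RPKM in fed VMH replicate 2, where the others reached 6.15 RPKM, and at 15 RPKM in fed PVN replicate 1. Without that library the fed VMH mean of Atg14 was 5.21 RPKM in place of 8.12 RPKM.

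Among lipid transfer and conjugation genes, Atg2a stood at 10.4 RPKM in fasted PVN replicate 1, Wipi1 at 21.8 RPKM in fed ARC replicate 1 and Wipi2 at 10.7 RPKM in fed DMH replicate 4. Atg3 stood at 46.9 RPKM in fasted ARC replicate 3, 28 RPKM in fasted DMH replicate 3 and, below the others, 14.1 RPKM in fasted PVN replicate 2. Atg4b stood at 8.67 RPKM in fasted VMH replicate 1. Atg4d stood at 6.15 RPKM in fasted ARC replicate 1 and 4.76 RPKM in fasted VMH replicate 4. Atg5 stood at 20.5 RPKM in fed VMH replicate 4, against at most 6.86 RPKM in the others, and Atg7 at 9.87 RPKM in fasted ARC replicate 3.

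Among receptors and transcription factors, Sqstm1 stood at 83.6 RPKM in fasted DMH replicate 4. Nbr1 stood at 15.8 RPKM, below the others, in fasted VMH replicate 1 and at 20.3 RPKM in fed DMH replicate 2. Tfeb stood at 1.01 RPKM in fed ARC replicate 5 and 1.16 RPKM in fed DMH replicate 5, and the mean without that library was 0.304 RPKM in fed ARC and 0.359 RPKM in fed DMH. Tfe3 stood at 8.61 RPKM in fasted VMH replicate 1.

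Of the lysosomal genes, Lamp1 stood at 132 RPKM, below the others, in fed ARC replicate 4 and at 160 RPKM in fasted ARC replicate 1. Lamp2 stood at 9.07 RPKM in fasted ARC replicate 3 and Ctsb at 79.3 RPKM in fasted VMH replicate 2, both below the others. Ctsl stood at 163 RPKM in fasted PVN replicate 1, against 103 to 105 RPKM in the others.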

How the results depend on the processing

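The count of genes called between fed and fasted mice was 0 in each nucleus under each of 12 alternatives and without each of the 42 libraries in turn. For the mean fasting change it was 1 (Becn1) with genes of mean RPKM of at least 5 only, where 30 of the 35 were tested, and ran from 0 to 1 without single libraries. Between fed nuclei the count was 9, with 6 to 9 under alternatives and 6 to 10 without single libraries. Between fasted nuclei it was 4, with 3 to 6 and 3 to 5. Ctsd, Ctsl and Lamp1 in both states, and Becn1 and Wipi1 in fed mice, kept their calls under each setting run. With array weights, the fed calls of Gabarap (adjusted p = 0.123), Sqstm1 (0.141) and Tfeb (0.137) were lost. The estimates above 0 in the VMH numbered 15 of 35, 10 without the libraries under 2 M reads and 19 with array weights. The cause was not tested. Tfeb, in which the added reads weigh most, went from 0.17 to 0.52 log2 in the ARC with a pseudocount of 0.1.

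With the replicate number as a block, 0 genes were called for fasting, 8 between fed and 3 between fasted nuclei. Libraries with 1 number showed no sign of pairing: deviations in 2 nuclei of 1 state had a median correlation of -0.03 over 58 pairs, and those of fed and fasted libraries, which are different mice, -0.05 over 20 pairs, with 0 over 0.1 in both. This does not show which libraries share a mouse. Some libraries with 1 number lay in different inferred batches, such as fed ARC replicate 2 in batch 2 and fed VMH replicate 2 in batch 1. The authors captured brains in batches, and if the inferred batches are those, such libraries come from different mice. Neither the correlations nor the block can therefore test the effect of shared brains. The added reads made up 29.2% of the mean of Tfeb and 8.52% of that of Atg4d, the highest shares of the 35.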
